A study of Mus musculus with 4 samples.

Results

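The genes for translation initiation and elongation factors were the protein-coding genes on chromosomes 1 to 19 whose symbol begins with Eif and a number from 1 to 6, or with Eef1 or Eef2. There were 68 of them among the 20661 coding genes of those chromosomes, 53 named for initiation and 15 for elongation. The choice rests on names, so it also takes in regulators of the factors, such as kinases, inhibitors and methyltransferases, and Eif4a3, whose product sits in the exon junction complex, and leaves out the X-linked and Y-linked genes Eif1ax, Eif2s3x and Eif2s3y. Positions of KAP1, the corepressor encoded by Trim28, had been mapped at these genes by chromatin immunoprecipitation and sequencing with the antibody 1Tb-A9 in regulatory T cells sorted from the spleen of C57BL/6 mice and expanded in culture for 2 weeks. The series has 2 KAP1 samples, each with a list of peak summits, and 2 input samples without antibody, which were not analysed here. All cells were of 1 kind and no condition was compared. The labels name no gene alteration or treatment beyond the culture. Nothing in them ties the replicates to separate animals or cultures, so differences between the lists may be technical. A peak list holds no expression values, so the labelled cell type could not be checked against marker levels.

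Initiation begins when eIF2 delivers the initiator tRNA to the small ribosomal subunit together with eIF1, eIF1A, eIF3 and eIF5, while the eIF4 proteins bind the mRNA cap and unwind the leader. eIF5B then brings in the large subunit, eEF1A brings each aminoacyl-tRNA, and eEF2 moves the ribosome along. The main controls of this pathway are the phosphorylation of eIF2, the 4E-binding proteins that the mTORC1 kinase switches off, and the eEF2 kinase. T cells raise protein synthesis strongly when they are activated and grow.

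The list of replicate 1 holds 8862 summits and that of replicate 2, 8.97 times longer, holds 79515, with no record of read depth in either. A summit was called shared when a replicate 2 summit lay within 200 bp of a replicate 1 summit, which held for 7720 summits, 7641 of them on the numbered chromosomes. The score deposited by the authors for each summit is a p-value or q-value as −log10, with a median of 7.25 in replicate 1 and 8.39 in replicate 2. Scores are compared only within a list, as percentile ranks in which 100 is the strongest. Positions are 1-based on mm10. All counts below describe 2 libraries of 1 group, without a test, because genes are not replicates.

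Factor genes had KAP1 at their ends at more than the rate of coding genes in general. A shared summit lay within 1 kb of an end in 15 of 68 factor genes (22.1%, Wilson 95% interval 13.8 to 33.3%, counting error only), against 8.94% of all coding genes. The interval treats the genes as independent draws, though some share an end, and it is not a test against the share of all coding genes. The same 15 genes had a replicate 1 summit at an end when replicate 1 was used alone, against 9.84% of all genes. With replicate 2 alone the count was 25 (36.8%), against 23.3%. Inside the genes, farther than 1 kb from both ends, the share of factor genes with shared summits depended on the settings. There, 7 of 68 held a shared summit (10.3%), against 12.9% of the 18370 coding genes long enough to have a body, and with replicate 2 alone the shares were 54.4% and 56.4%. With ends of 500 bp, and so wider bodies, the order turned, with 11 factor genes (16.2%) against 13.4% of all genes. In other settings the body share was farther below that of all genes. It was 2.94% against 8.04% with scores at or above the median of each list, and 6.9% against 12.5% with ends of 2500 bp. With replicate 2 reduced to its 8862 highest scores it was 1.47% against 6.37%. Within 20 kb, body included, 32 factor genes had a shared summit (47.1%), against 34.3% of all genes, and with replicate 2 alone 65 had a summit (95.6%), against 84.3%. Factor genes had a median length of 15152 bp and a median of 2 coding neighbours within 20 kb, against 17491 bp and 1 neighbour for all coding genes, and the part of length and gene density in these shares was not tested. With replicate 2 reduced to its 8862 highest scores, 8 factor genes kept a shared end summit (11.8%), against 4.02% of all genes. With ends of 500 bp 9 did (13.2%), against 6.18%, and with scores at or above the median of each list 10 did (14.7%), against 5.21%. Within 20 kb the share came to that of all genes, at 19.1% against 18.7% with replicate 2 reduced, and at 25% against 23% with scores at or above the medians.

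**Figure D1:**
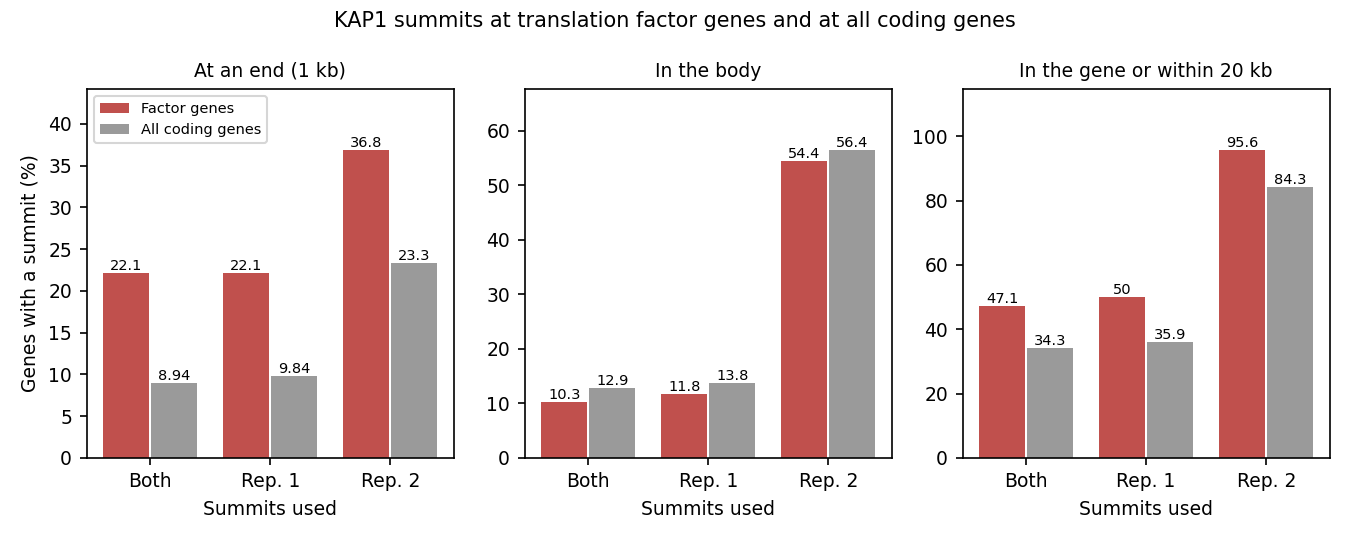
Percentage of genes with a KAP1 summit at an end, in the body, and in the gene or within 20 kb, for the 68 factor genes and for all coding genes of chromosomes 1 to 19 (y axis), using shared summits or the list of either replicate (x axis). At ends the factor genes stand at 22.1% against 8.94% with shared summits; in bodies they stand at 10.3% against 12.9%.

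By class, the counts are small, and they stand beside the 8.94% of all coding genes with a shared end summit, without a test of any difference between classes. The eIF2 class holds the subunit genes Eif2s1 and Eif2s2 and also Eif2a and Eif2d, which do not encode subunits of eIF2. Shared summits at an end were found at 3 of 4 eIF1 genes, 1 of 4 eIF2 kinase genes, 3 of 14 eIF3 genes, 1 of 6 genes of the eIF4A helicases and their helpers, 2 of 8 genes of eIF4E and its binding proteins, 1 of 5 genes of eIF5, eIF5A, eIF5B and eIF6, 2 of 12 eEF1 genes and 2 of 3 eEF2 genes. None of the 4 eIF2 genes, 5 eIF2B genes or 3 eIF4G genes had one. With replicate 2 alone, each of these last 3 classes had 1 such gene, beside 23.3% of all coding genes. By broad role, 11 of 53 initiation genes and 4 of 15 elongation genes had one.

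**Figure D2:**
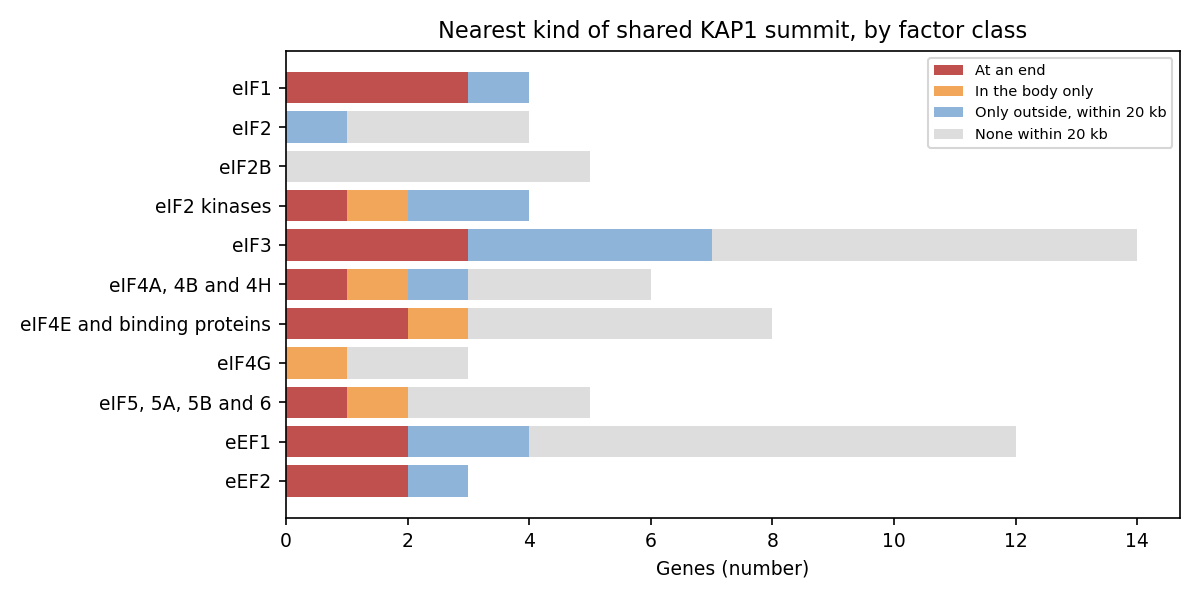
Number of factor genes (x axis) in each of the 11 classes (y axis), coloured by the place of their shared KAP1 summits, where a gene with a summit at an end counts as that and a gene without one counts by the body and then by the surroundings. Of the 4 eIF1 genes 3 have one at an end, which none of these 3 keeps with replicate 2 reduced. None of the 5 eIF2B genes has a shared summit within 20 kb, beside 34.3% of all coding genes with one.

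Start codon selection is the task of eIF1 and eIF1A, which hold the scanning subunit open. Eif1 had a shared summit on chromosome 11 at 100320544, 595 bp inside its start, scoring 10.7 in replicate 1 and 9.06 in replicate 2. Its close paralog Eif1b had one on chromosome 9 at 120491756, 850 bp upstream of its start, with scores of 7.25 and 8.33. These ranked at percentiles 70.1 and 53.8 for Eif1 and at 48.3 and 49.7 for Eif1b. The summit of Eif1b also lay at an end of the noncoding gene D830035M03Rik. Eif1ad, which is named for an eIF1A-like domain, had 2 shared summits at the same end, 23 bp upstream and 822 bp downstream of its start. The downstream one was the stronger, with scores of 13.2 and 12.2, against 5.10 and 5.75 for the upstream one. Both lay within 1 kb of the end of Banf1, a neighbour that overlaps the start of Eif1ad. Eif1a, the autosomal eIF1A gene on chromosome 18, had its only shared summit 1069 bp from its lower end, just beyond the 1 kb limit, at percentiles 19.6 and 63.8. It also lay at an end of Tmed7. The gene table names 3 pseudogenes of Eif1. How reads that match several places were counted is not given in the sources used here.

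eIF2 carries the initiator tRNA, and its guanine nucleotide is exchanged by eIF2B. Eif2s1, the gene of the alpha subunit that stress kinases phosphorylate, had no summit of replicate 1 within 20 kb. Replicate 2 alone had 1 summit at its higher end, 727 bp outside, with a score of 5.82 at percentile 14.1, and it lay equally at an end of Plek2. Eif2d, which encodes another tRNA delivery factor, was named after its values were seen as the 1 gene of its class with shared summits, 4 of them, all between 10389 and 17034 bp outside. The 5 eIF2B genes had no shared summit within 20 kb, where 34.3% of all coding genes had one. Eif2b4 had a replicate 1 summit without partner, 10060 bp outside. Each of the 5 had at least 2 replicate 2 summits within 20 kb, beside a median of 3 for all coding genes. Of the 5, only Eif2b3 had a summit at an end, 634 bp inside its lower end, with a replicate 2 score of 15.3 at percentile 89.6.

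All 4 kinase genes of eIF2 had a shared summit within 20 kb, beside 34.3% of all coding genes. Eif2ak2 and Eif2ak3 no longer had one within 10 kb, and Eif2ak4 had none with scores at or above the medians or with replicate 2 reduced. Eif2ak1, the gene of the heme-regulated kinase HRI, had one on chromosome 5 at 143817148, 644 bp upstream of its start, with scores of 8.72 and 15.6. This placed it at percentile 62.8 of replicate 1 and 90.7 of replicate 2. Eif2ak4, the gene of the amino acid sensor GCN2, had a weak one in its body, 23165 bp from the nearer end, with scores of 4.17 and 6.50. The other kinase genes were named after their values were seen. At Eif2ak3, the gene of the endoplasmic reticulum kinase PERK, the shared summit lay 19205 bp outside and was strong, with scores of 42.1 and 42.3 at percentiles 98.0 and 99.0. At Eif2ak2, the gene of the RNA-activated kinase PKR, the shared summit lay 14373 bp outside, at ends of Heatr5b and Gpatch11, with scores of 8.87 and 27.1.

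eIF3 is the large scaffold of initiation, and the strongest factor gene summit lay at one of its subunits. Eif3k had a shared summit on chromosome 7 at 28981842, 46 bp downstream of its start, with scores of 57.6 and 70.8, at percentiles 99.2 and 99.8. A second shared summit lay in its body, 1516 bp from the lower end, with scores of 27.7 and 67.2. It was also the factor gene with the most shared summits within 20 kb, 5 in all, a number reached by 0.707% of coding genes. The start summit lay inside Eif3k but also within 1 kb of the lower end of Map4k1, the gene of a kinase that restrains T cell receptor signalling. Only 159 bases lie between that end and the higher end of Eif3k. The strongest of the 5 by replicate 2 score was 9946 bp outside Eif3k, inside Map4k1, with scores of 43.5 and 107.0. Eif3d, whose product can bind the cap of some mRNAs, had a shared summit 205 bp upstream of its start on chromosome 15 at 77971029, with scores of 14.4 and 33.1. Eif3f had a weaker one 211 bp upstream of its start on chromosome 7 at 108934204, with scores of 5.10 and 6.50. The remaining 11 eIF3 genes had none at an end. Eif3g and Eif3h had the nearest shared summits among these, 3087 and 5816 bp outside, with scores of 4.61 and 6.65 at Eif3g and 11.9 and 13.2 at Eif3h. Eif3e was 1 of 3 factor genes, with Eif5a2 and Eef1a2, without a summit of either replicate within 20 kb, which held for 15.6% of coding genes. The gene table holds 4 pseudogenes under the older name of Eif3e, Eif3s6.

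Cap binding and unwinding are the work of eIF4E, eIF4G and the helicase eIF4A with its helpers eIF4B and eIF4H. Eif4e, the cap-binding subunit, had a shared summit on chromosome 3 at 138527156 with scores of 7.27 and 31.4. This was percentile 50.7 in replicate 1 and 98.2 in replicate 2. It lay 965 bp inside the lower end of the gene and 112 bp upstream of a second listed start. The noncoding gene Mir1956 also has an end within 1 kb of it. Another shared summit lay 8051 bp outside, with scores of 22.5 and 25.6. Eif4e2, whose product competes for the cap without driving translation, had shared summits at both ends, 20 bp upstream of its start with scores of 7.25 and 8.04, and 983 bp beyond its other end with scores of 12.2 and 15.4. Eif4e3, a further cap-binding paralog, had only a weak body summit with scores of 4.17 and 7.19. Eif4e1b, the oocyte paralog, had a replicate 2 summit 576 bp beyond its higher end with a score of 34.4 at percentile 98.5 but no replicate 1 partner, and that summit lay at an end of Tspan17. Eif4ebp1, the gene of the best known mTORC1-controlled inhibitor of eIF4E, had no replicate 1 summit within 20 kb, and 3 of replicate 2, the strongest in its body with a score of 13.5.

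The helicase paralogs Eif4a1 and Eif4a2 differed in place. Eif4a2 had a shared summit on chromosome 16 at 23107298, 170 bp upstream of its start, with scores of 7.25 and 6.51. It ranked at percentiles 48.3 and 24.2, and was not kept with scores at or above the medians or with replicate 2 reduced. Eif4a1 had none nearer than 4223 bp, where one with scores of 3.69 and 7.40, at percentiles 10.7 and 33.7, lay at an end of Mpdu1. Eif4h held one in its body, 7523 bp downstream of its start, with scores of 5.56 and 11.1. Of the scaffold genes, Eif4g1 had 8 replicate 2 summits within 20 kb and no replicate 1 summit. The longest factor gene, Eif4g3 at 215308 bp, had 15 replicate 2 summits within 20 kb and 1 shared summit, 99280 bp from its nearer end, with scores of 4.17 and 8.31. A replicate 2 summit without partner, with a score of 9.14, lay 19 bp inside its lower end.

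Subunit joining and peptide bond support involve eIF5B, eIF6 and eIF5A. Eif5a, the gene of the hypusine-bearing factor that helps ribosomes through stalled sequences, had the second strongest end summit of all factor genes by mean rank. It lay on chromosome 11 at 69921483, 475 bp inside the higher end and 97 bp upstream of a listed inner start, with scores of 28.1 and 44.1, at percentiles 94.2 and 99.1. Eif6, whose product keeps ribosomal subunits apart, held a shared summit in its body, 2418 bp from its higher end, scoring 9.86 and 11.9. Eif5b had 2 replicate 2 summits by its start, the stronger with a score of 15.6, and neither had a partner. Eif5 had 5 replicate 2 summits outside the gene within 20 kb and none of replicate 1.

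Of the 4 elongation genes with an end summit, 3 encode enzymes that modify a factor and 1 encodes a subunit. Eef2k, the gene of the kinase that inactivates eEF2, had a shared summit on chromosome 7 at 120842485, 157 bp beyond its lower end and 346 bp upstream of its first listed start, with scores of 16.5 and 33.4, at percentiles 84.6 and 98.4. Eef2kmt, the gene of a lysine methyltransferase of eEF2, had one 14 bp downstream of its start on chromosome 16 at 5255942, with scores of 13.2 and 16.7, and another 1512 bp inside with scores of 7.25 and 8.38. The noncoding gene Gm15983 has an end within 1 kb of the first. Eef2 itself had 3 shared summits on its upstream side, the nearest 1070 bp away and so just beyond the limit, at percentiles 71.7 and 97.4. Among the 12 eEF1 genes, 2 had an end summit. Eef1b2, a nucleotide exchange subunit, had one 736 bp beyond the end opposite its start, with scores of 6.16 and 7.40, and Eef1akmt2, the gene of a lysine methyltransferase of eEF1A, had one 134 bp downstream of its listed start, also with 6.16 in replicate 1 and with 9.57 in replicate 2. That pair lay 60 bp apart, the widest among the factor gene ends, and is not shared at a distance of 50 bp. Eef1a1, whose product is among the most abundant proteins of most cells, had no replicate 1 summit within 20 kb and 8 of replicate 2. The one at an end lay 232 bp upstream of its start, with a score of 9.01 at percentile 53.5. The strongest, with a score of 15.9, lay 19356 bp outside. At the lower end of Eef1d, another exchange subunit, lay a replicate 2 summit at percentile 94.6, also at an end of Naprt. Eef1g was named after its values were seen, for a strong shared summit 6229 bp outside, with scores of 32.8 and 54.7. Eef1akmt4 and the readthrough gene Eef1akmt4-ece2 share a lower end and are not separate observations.

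Of the 17 shared summits at factor gene ends, 15 lay within 1000 bp of a listed start. The RefSeq promoter table lists a start for 52 of the 68 factor genes and for 79.6% of all coding genes. All 17 summits lay at genes with a listed start. The 16 factor genes without one had no shared end summit, so leaving them out raises the factor genes' share. Of the 52, 14 (26.9%) had a shared summit within 1 kb of a listed start, against 8.57% of the 16456 coding genes with one. The end opposite the start had a shared summit at 2 of the 52 (3.85%), Eif4e2 and Eef1b2, against 1.31%. A promoter window from 250 bases before to 50 bases after a listed start held a shared summit in 9 factor genes (17.3%), against 3.43% of coding genes. These 9 were Eif1ad, Eif3d, Eif3f, Eif3k, Eif4a2, Eif4e, Eif4e2, Eif5a and Eef2kmt.

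**Figure D3:**
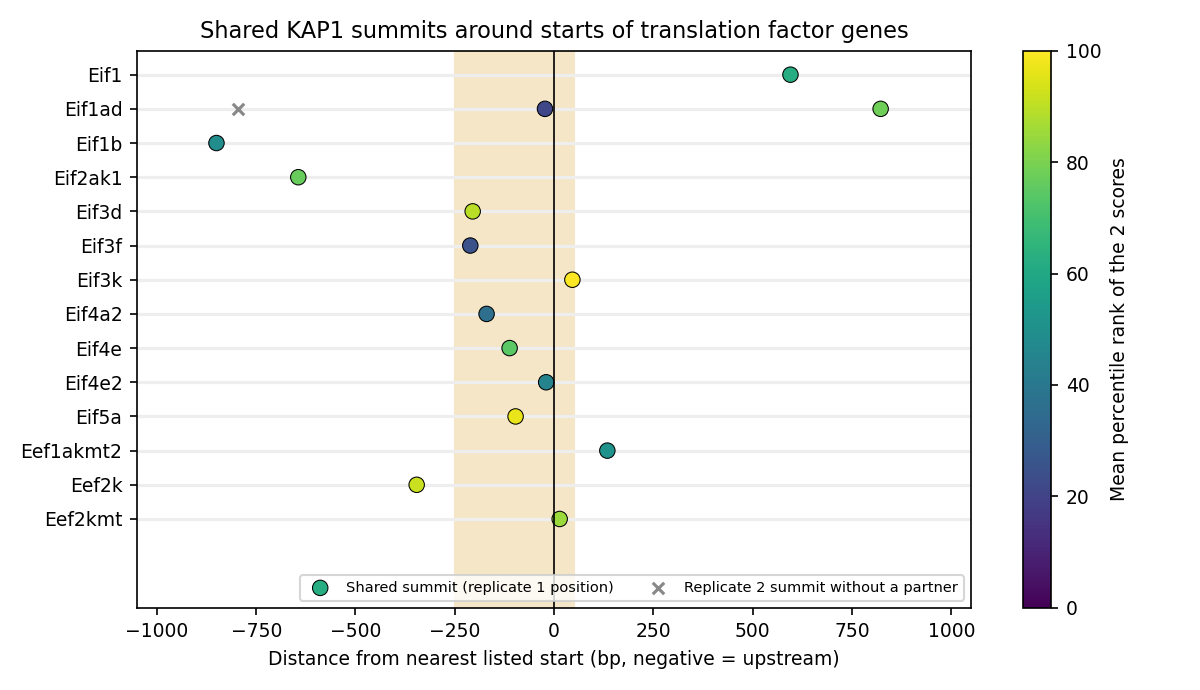
Position of shared KAP1 summits (circles, coloured by the mean of their 2 percentile ranks) relative to the nearest listed start of 14 factor genes, in bp along the direction of transcription (x axis), with unpaired replicate 2 summits as crosses and the promoter window shaded. Of the circles, 9 fall in the shaded window, among them Eif3k, 46 bp downstream of its start, with the highest mean rank.

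The bases before the start are shown for the factor genes with a shared summit in the window of their first listed start, where they lie outside coding genes, so that the summit can be read against the sequence. Each runs 5′ to 3′ on the gene's own strand and ends just before the start or, in Eif3k, at the gene's end, from RefSeq on GRCm38.p6, whose coordinates are those of mm10. Capitals mark the 21 bases centred on the replicate 1 summit, and in Eif3k and Eef2kmt no base is in capitals because the summit lies after the start.
Eif3d, chr15:77970825-77971074, minus strand: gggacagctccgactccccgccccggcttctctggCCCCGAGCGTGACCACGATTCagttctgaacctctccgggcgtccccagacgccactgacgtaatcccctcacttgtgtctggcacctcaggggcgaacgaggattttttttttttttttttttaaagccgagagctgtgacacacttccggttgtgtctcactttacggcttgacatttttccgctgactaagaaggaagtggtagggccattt
Eif3f, chr7:108934165-108934414, plus strand: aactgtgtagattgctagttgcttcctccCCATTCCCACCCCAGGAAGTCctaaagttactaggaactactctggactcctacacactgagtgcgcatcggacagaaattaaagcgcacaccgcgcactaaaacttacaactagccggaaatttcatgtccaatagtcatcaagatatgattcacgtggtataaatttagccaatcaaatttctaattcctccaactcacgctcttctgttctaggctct
Eif3k, chr7:28981891-28982049, minus strand, the whole gap to Map4k1: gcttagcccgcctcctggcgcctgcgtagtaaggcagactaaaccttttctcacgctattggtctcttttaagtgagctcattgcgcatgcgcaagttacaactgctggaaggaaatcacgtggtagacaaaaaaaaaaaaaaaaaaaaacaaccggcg
Eif4a2, chr16:23107218-23107467, plus strand: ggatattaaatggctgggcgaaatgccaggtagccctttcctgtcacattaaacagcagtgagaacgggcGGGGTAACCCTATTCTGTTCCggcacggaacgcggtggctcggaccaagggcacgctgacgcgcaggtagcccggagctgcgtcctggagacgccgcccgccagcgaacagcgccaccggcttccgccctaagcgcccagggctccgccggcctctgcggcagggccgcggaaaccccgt
Eif4e2, chr1:87213661-87213910, plus strand: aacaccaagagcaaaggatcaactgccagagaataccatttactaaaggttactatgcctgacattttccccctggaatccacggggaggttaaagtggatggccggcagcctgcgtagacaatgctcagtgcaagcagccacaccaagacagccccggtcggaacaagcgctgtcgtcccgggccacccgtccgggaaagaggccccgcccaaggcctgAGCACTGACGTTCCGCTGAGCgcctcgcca
Eef2kmt, chr16:5255957-5256206, minus strand: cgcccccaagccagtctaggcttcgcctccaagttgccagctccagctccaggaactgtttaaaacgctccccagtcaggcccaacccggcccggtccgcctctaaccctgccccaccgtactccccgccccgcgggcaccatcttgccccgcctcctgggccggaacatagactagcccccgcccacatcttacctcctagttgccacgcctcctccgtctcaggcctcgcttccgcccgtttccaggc
The Eif4a2 and Eef2kmt stretches are rich in G and C, at 66.4% and 66.8%, with 27 and 18 CG pairs, while Eif3f has 43.6% and 8 pairs. Eif3d and Eif3k each hold a long run of 1 base, T in Eif3d and A in Eif3k.

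Motif matches, found on both strands without mismatch, are given as a description of letters and not of binding sites. The E-box CACGTG, the core site of MYC-type factors, was present in a promoter window of 15 of the 52 factor genes (28.8%), against 9.01% of coding genes. Where only the first listed start of each gene was taken, 13 had it (25%), against 7.97%. Both counts include Eef1akmt4 and Eef1akmt4-ece2, which share a start and so the same E-box and GC boxes. Of the 9 genes with a shared summit in a window, 4 had an E-box, Eif3f, Eif3k, Eif4e and Eif5a, against 12% of the 565 such coding genes. In the sequences above the E-box begins 68 bases before the start of Eif3f and 44 before that of Eif3k. In Eif4e it begins 228 and 64 bases before the second listed start, the one by the summit. The ETS core CCGGAAG was found in 16 factor genes (30.8%), against 13.3%, and the GC box GGGCGG in 38 (73.1%), against 50.2%. Among genes with a shared summit in a window, the ETS core was in 4 of the 9 factor genes (44.4%), against 34.2% of coding genes, and the GC box in 6 (66.7%), against 59.5%. Of the 52 factor genes, 2 had the YY1 core AAGATGGCG (3.85%), against 2.15% of coding genes. In the first window alone 1 had it, at 1.92% in factor genes and in coding genes alike. There the ETS core was in 14 (26.9%), against 12.3%, and the GC box in 37 (71.2%), against 47.3%. The windows of factor genes also had more CG pairs, a median of 23 in the first window, against 14 for all coding genes. Among genes with a shared summit in a window the medians were 20 in factor genes and 19 in all coding genes. The part of base composition in the motif counts was not tested.

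The strength of the end summits was spread over most of the range. The 17 shared summits at factor gene ends had scores from 5.10 to 57.6 in replicate 1 and from 5.75 to 70.8 in replicate 2. Their median percentile was 62.8 in replicate 1 and 78.8 in replicate 2, against 58.3 and 82.2 for all 1717 shared summits at coding gene ends. In replicate 1, 2 of the 17 ranked above percentile 90, at Eif3k and Eif5a. In replicate 2, 7 did so, at Eif3k, Eif5a, Eef2k, Eif3d, Eif4e, Eef2kmt and Eif2ak1. How many of all 1717 shared end summits ranked above percentile 90 is not given here, so neither count can be called high or low. The summit at Eif4e was the one whose ranks stood farthest apart, in the upper part of replicate 2 and at the middle of replicate 1. The median distance between partners was 5 bp. At an end of another coding gene as well lay 3 of the 17 (17.6%), 2 at Eif1ad and 1 at Eif3k, against 14% of all shared end summits, so these cannot be assigned to 1 gene.

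**Figure D4:**
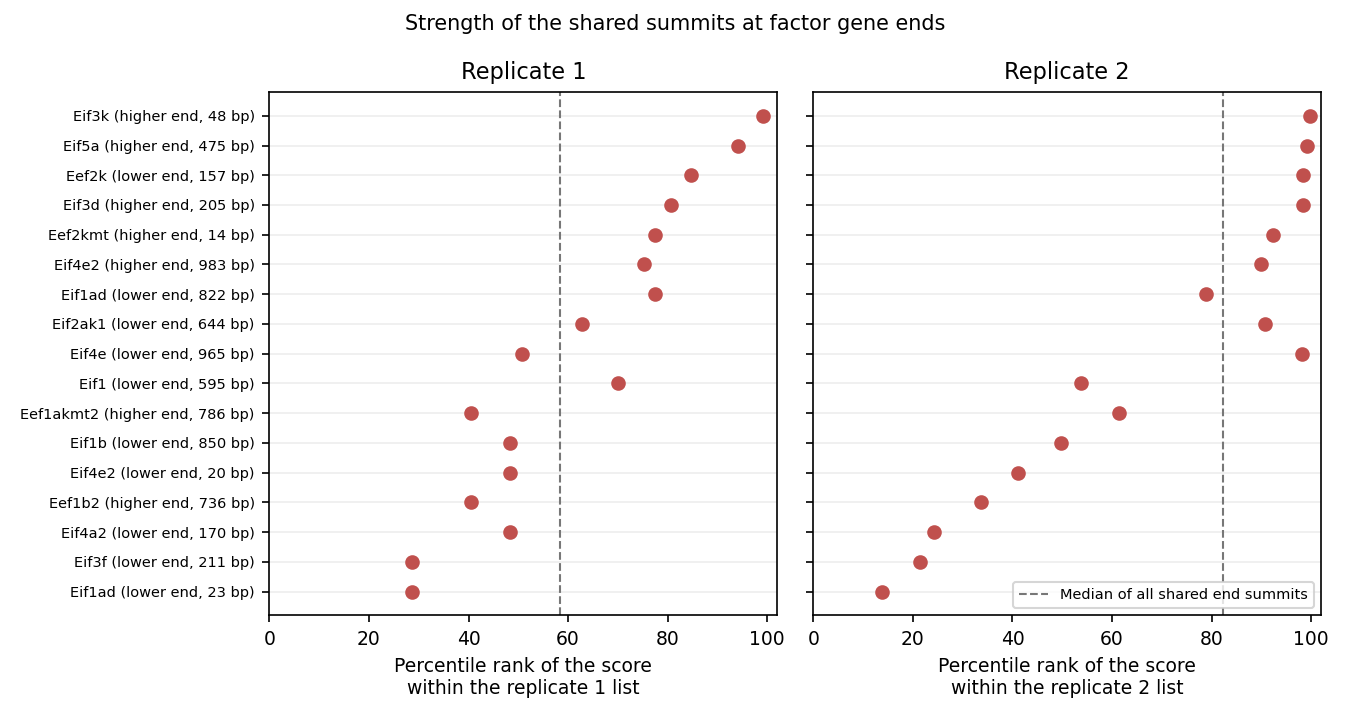
Percentile rank of the score within the replicate 1 list and within the replicate 2 list (x axes) for the 17 shared summits at factor gene ends (y axis, with distance to the nearer end in bp), with the median of all shared end summits as a dashed line. Eif3k and Eif5a rank highest in both lists, and the Eif1ad summit 23 bp from its end ranks lowest in replicate 2 and level with Eif3f in replicate 1.

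Beyond the 20 genes with a shared summit at an end or in the body, 12 had one only outside, within 20 kb, and 36 had none. A shared summit in the gene or within 20 kb was found for 47.1% of factor genes, against 34.3% of all coding genes. At an end, 10 factor genes had a summit of replicate 2 alone (14.7%), against 14.3% of coding genes. The unpaired replicate 2 end summits of factor genes had a median percentile of 53.5, against 78.8 for the paired ones. Conversely, none of the 17 replicate 1 summits at factor gene ends was without a partner.

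Other translation genes, listed by name, had end shares on both sides of that of the factor genes. Shared summits lay at an end of 23 of 83 cytosolic ribosomal protein genes (27.7%), 6 of 22 aminoacyl-tRNA synthetase and scaffold genes (27.3%), none of 12 release, recycling and poly(A)-binding factor genes, and 2 of 9 mitochondrial translation factor genes (22.2%), beside the 22.1% of factor genes. Over all coding genes the share was 8.94%. With replicate 2 alone, 3 of the 12 release and recycling genes had one (25%), close to the 23.3% of all coding genes. The synthetase genes were Yars, with scores of 32.8 and 41.0 at a summit 20 bp from its end, and Tars, Wars, Rars, Aars and Aimp1. The mitochondrial factor genes were Tufm and Mtrf1l, the genes of the elongation factor Tu and a release factor, both with low scores, 2.31 and 5.26 at Tufm and 3.21 and 5.31 at Mtrf1l. In gene bodies, ribosomal protein genes had 1 of 68 long enough to have one (1.47%), and their median length was 3175 bp. The body share was 10.3% for factor genes, 7 of 68, and 12.9% for all coding genes. These shares are side by side without a test of their difference.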

How the data were processed

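KAP1 was mapped by ChIP-seq in 2 samples, from sonicated nuclear lysates and fragments between 150 and 400 bp per the labels' protocols. The submitters' processing notes name MACS2 2.2.1, Bowtie2 2.2.9 and Picard 2.1.1, and the build mm10. Their settings, the control and the threshold are not stated there or in the lists. The deposited lists, 1 per sample, give each summit a position and a −log10 score of a p-value or q-value. Read depth is not recorded, so its precision is unknown.

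Genes came from the RefSeq table of GRCm38.p6 and starts from its promoter table. A gene end was 1000 bp around the lowest or highest coordinate. A body was the rest of a gene over 2000 bp. Placement used Python 3.11.15 with numpy 2.4.6 and pandas 2.3.3 and was tested on simulated data. Factor genes are counted in the totals of all coding genes.

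The members, classes, other lists and alternatives were chosen with earlier results of these data known, and the motifs after the data were seen. Named genes were all with a shared end or body summit, the 5 others with the nearest shared summit, the 5 with the highest replicate 2 end score without a shared one, and 9 fixed genes. Eif2d, Eif2ak2, Eif2ak3, Eif3e, Eif5, Eif5a2, Eef1a2, Eef1akmt4, Eef1g and the genes of other lists were named after their values were seen. Promoter windows of inner starts and of Eif1ad, which lie inside genes, are not printed. Alternatives were shared distances of 50 and 500 bp, scores at or above the medians, replicate 2 reduced to 8862 summits, either list alone, ends of 500 and 2500 bp, and surroundings of 10 and 50 kb.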

Additional observations from a re-analysis of the deposited data

How the results depend on the processing

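Of the 15 factor genes with a shared summit at an end (22.1%, against 8.94% of all coding genes), 8 remained with replicate 2 reduced to its 8862 highest scores (11.8%, against 4.02%), without Eif1, Eif1ad, Eif1b, Eif3f, Eif4a2, Eef1akmt2 and Eef1b2. With ends of 500 bp 9 remained (13.2%, against 6.18%), without Eif1, Eif1b, Eif2ak1, Eif4e, Eef1akmt2 and Eef1b2. With scores at or above the medians 10 remained (14.7%, against 5.21%), and with ends of 2500 bp there were 18 (26.5%, against 13.3%), Eef2, Eif1a and Eif6 being added. The factor genes' share was above that of all coding genes in each of these settings and with either list alone, where the count was 15 without replicate 2 and 25 without replicate 1.

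The 7 genes with a body summit became 2 with scores at or above the medians (2.94%, against 8.04%) and 1 with replicate 2 reduced (1.47%, against 6.37%). They became 11 with ends of 500 bp (16.2%, against 13.4%) and 4 of 58 with ends of 2500 bp (6.9%, against 12.5%). With a single list the body count was 8 without replicate 2 (11.8%, against 13.8%) and 37 without replicate 1 (54.4%, against 56.4%). The 32 genes with a shared summit within 20 kb became 17 with scores at or above the medians (25%, against 23%) and 13 with replicate 2 reduced (19.1%, against 18.7%), so that their share no longer stood apart from that of all genes. With surroundings of 10 kb there were 27 (39.7%, against 27.3%) and with 50 kb 43 (63.2%, against 47.8%). With a single list they ranged from 34 (50%, against 35.9%) to 65 (95.6%, against 84.3%). Shared distances of 50 and 500 bp moved each of the 3 counts by at most 1 gene. No paired analysis was possible because the replicate numbers link KAP1 samples to input samples that were not analysed here, and no groups were compared.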
